A study of Mus musculus with 201 samples.

Results

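The Homer genes *Homer1*, *Homer2* and *Homer3* were followed through 201 single mouse dentate granule cells and nuclei. They were chosen by name as the whole Homer family, and all 3 are listed among the 42790 genes of the whole-cell tables, the 42802 of the NE tables and the 42774 of the HC tables. Whole cells came from Prox1-GFP mice, in which GFP is linked to the *Prox1* promoter, and were dissociated with papain and sorted as GFP+ 1 h after an injection of saline (47 cells) or of pentylenetetrazole (PTZ, 50 mg per kg, 35 cells), a GABA(A) receptor antagonist that triggers seizures. Nuclei came from C57BL/6 mice (8-week-old females) by Dounce homogenization. NE nuclei were from a mouse that spent 15 min in an unfamiliar environment (NE) and 1 h back in its cage, and were sorted on antibody staining as PROX1+FOS+ (48 nuclei) or PROX1+FOS- (48 nuclei). HC nuclei were NEUN+PROX1+ nuclei of a mouse kept in its home cage (HC, 23 nuclei). After limits on depth and on genes detected, 38 saline-treated cells, 30 PTZ-treated cells, 40 FOS+ nuclei, 41 FOS- nuclei and 23 HC nuclei were compared.

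Homer proteins are postsynaptic scaffolds. Their EVH1 domain holds proline-rich stretches of group I metabotropic glutamate receptors, of the calcium release channels of the endoplasmic reticulum and of SHANK proteins, and the coiled coil of the long forms joins Homer molecules to each other. *Homer1* also makes short forms without the coiled coil, of which Homer1a is an immediate early gene (IEG) product of active neurons that competes with the long forms. *Homer2* and *Homer3* are known mainly for long forms.

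On GRCm38 *Homer1* (ENSMUSG00000007617) lies on the plus strand of chr13:93299635-93405129 with 12 annotated transcripts in GENCODE M21, *Homer2* (ENSMUSG00000025813) on the minus strand of chr7:81600481-81707527 with 9, and *Homer3* (ENSMUSG00000003573) on the plus strand of chr8:70282827-70294361 with 8. Homer1-204, a short-coding *Homer1* transcript, has 5 exons, 5713 bases and 186 codons. Its last exon (chr13:93355940-93360462) runs on past 93356079, where the long transcripts splice, into sequence that is intronic for them. The long transcript Homer1-201 has 9 exons, 2765 bases and 354 codons. Both share the first 527 coding bases. Other annotated *Homer1* transcripts are also short-coding, among them Homer1-206 (2580 bases, 233 codons) and Homer1-207 (2468 bases, 193 codons). The coding bases on either side of the split between Homer1-204 and Homer1-201 are shown because they separate this short form from this long one. The shared bases are in lower case, and the bases after the split, up to and including the stop codon of Homer1-204, in capitals.
Homer1-204: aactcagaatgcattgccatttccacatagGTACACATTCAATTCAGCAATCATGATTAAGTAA
Homer1-201: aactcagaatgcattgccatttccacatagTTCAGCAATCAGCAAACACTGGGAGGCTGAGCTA

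The 250 bases before each RefSeq start of the 3 genes (GRCm38.p6) were searched on both strands for TGACG, the core of the cyclic AMP response element bound by CREB, for the full element TGACGTCA, which contains that core, and for the AP-1 motif TGANTCA, which FOS and JUN proteins bind. The window of the first *Homer1* start held 3 matches to TGACG, all on the plus strand, beginning 56, 40 and 14 bases before the start. Of 32851 promoter windows of the same length, 17.8% held at least 1 match and 0.688% at least 3. The last 100 bases before this start (chr13:93303657-93303756, plus strand) are shown with the matches in capitals.
Homer1 promoter: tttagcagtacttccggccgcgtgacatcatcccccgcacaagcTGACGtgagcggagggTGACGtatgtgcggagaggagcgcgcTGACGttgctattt
TGACG was not in the window of the second *Homer1* start, in those of the 2 *Homer2* starts or in that of *Homer3*. Neither TGACGTCA, found in 1.55% of all windows, nor TGANTCA, found in 6.75%, was in any window of the 3 genes. A match describes letters and is no evidence of binding.

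Values are TPM, the authors' estimates of transcript abundance, which are divided by transcript length and scaled to the same sum in each cell, and a gene counts as detected in a cell at a TPM above 1. Every cell is a sample of its own, and the cells of a group come from 1 mouse or 1 pool of mice. Cells are therefore not replicates of a condition, no p values are given, and each ± is the SD over cells. Intervals for shares are exact 95% binomial intervals and cover counting error only. Total counts per sample were 401331 to 2696043 in saline-treated cells, 67212 to 5129240 in PTZ-treated cells, 63775 to 1060516 in FOS- nuclei, 80096 to 1035170 in FOS+ nuclei and 107647 to 278779 in HC nuclei. All 7 granule cell markers were detected in every group. *Prox1* was detected in all 68 whole cells, in 34 of 41 FOS- nuclei, in 33 of 40 FOS+ nuclei and in 14 of 23 HC nuclei. Whole cells and NE nuclei were screened for markers of other cell types. In 3 PTZ-treated cells, 1 FOS+ nucleus and 1 FOS- nucleus, the summed TPM of an astrocyte, interneuron or CA pyramidal marker list was above that of the granule cell list. HC nuclei were not screened in this way. Their granule cell markers summed to 45.1 to 5792 TPM (median 691). Their highest sums were 3231 for interneuron, 2776 for astrocyte, 180 for oligodendrocyte, 5.86 for microglia and 0 for CA pyramidal markers. Of the 6 interneuron markers 5 were detected in FOS- and 4 in FOS+ nuclei, and their summed TPM was 0 to 5822 (median 1.22) and 0 to 1360 (median 26.3). *Gad1* was detected in 15 FOS- and 19 FOS+ nuclei and *Gad2* in 7 and 14, both genes of GABA synthesis, whereas the vesicular GABA transporter gene *Slc32a1* was detected in 2 and 0. The 5 astrocyte markers were detected in both sorts and summed to 0 to 2437 (median 9.79) in FOS- and 0 to 1687 (median 11.8) in FOS+ nuclei, with *Slc1a3* in 25 and 31 nuclei. Of the 5 oligodendrocyte markers 5 and 4 were detected, with sums of 0 to 351 and 0 to 1021 and *Mag* in 14 and 23 nuclei. Of the 5 microglia markers 3 and 4 were detected, with sums of 0 to 51.8 and 0 to 4304. Of the 5 CA pyramidal markers 4 were detected in each sort, with sums of 0 to 79.7 and 0 to 159. The part of other cell types in the results below was not tested.

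*Homer1* was higher in FOS+ than in FOS- nuclei of the NE mouse. It was detected in 37 of 40 FOS+ nuclei (92.5%, interval 79.6 to 98.4%) and in 22 of 41 FOS- nuclei (53.7%, interval 37.4 to 69.3%). With every nucleus thinned to 60000 counts, the expected shares with at least 1 *Homer1* count were 85.4% and 41.5%. In FOS+ nuclei its TPM was 0 at the lowest, 320 at the median and 3977 at the highest. In FOS- nuclei the lowest was 0, the median 1.35 and the highest 734. The groups overlapped, with 11 FOS+ nuclei above every FOS- nucleus and 2 FOS- nuclei above the FOS+ median. The highest FOS- value came from 33 counts, and the next was 403 TPM. The mean log2(TPM + 1) was 7.14 ± 3.57 (SD, n = 40) in FOS+ and 2.72 ± 3.16 (SD, n = 41) in FOS- nuclei, a difference of 4.42 that is larger than the SD of either group. *Homer1* ranked 19th from the top among the 16411 genes with a count in at least 5 nuclei. A difference of at least 1 in mean log2(TPM + 1), called higher below, was reached by 5.83% of those genes, and 3.47% were also higher in each of the 4 amplification conditions, as *Homer1* was. As a share of the summed counts of the group, written as CPM, *Homer1* stood at 1677 in FOS+ and 106 in FOS- nuclei, a ratio of 15.9. Without the 2 nuclei led by markers of other cell types, the difference in mean log2(TPM + 1) was 4.55.

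**Figure D1:**
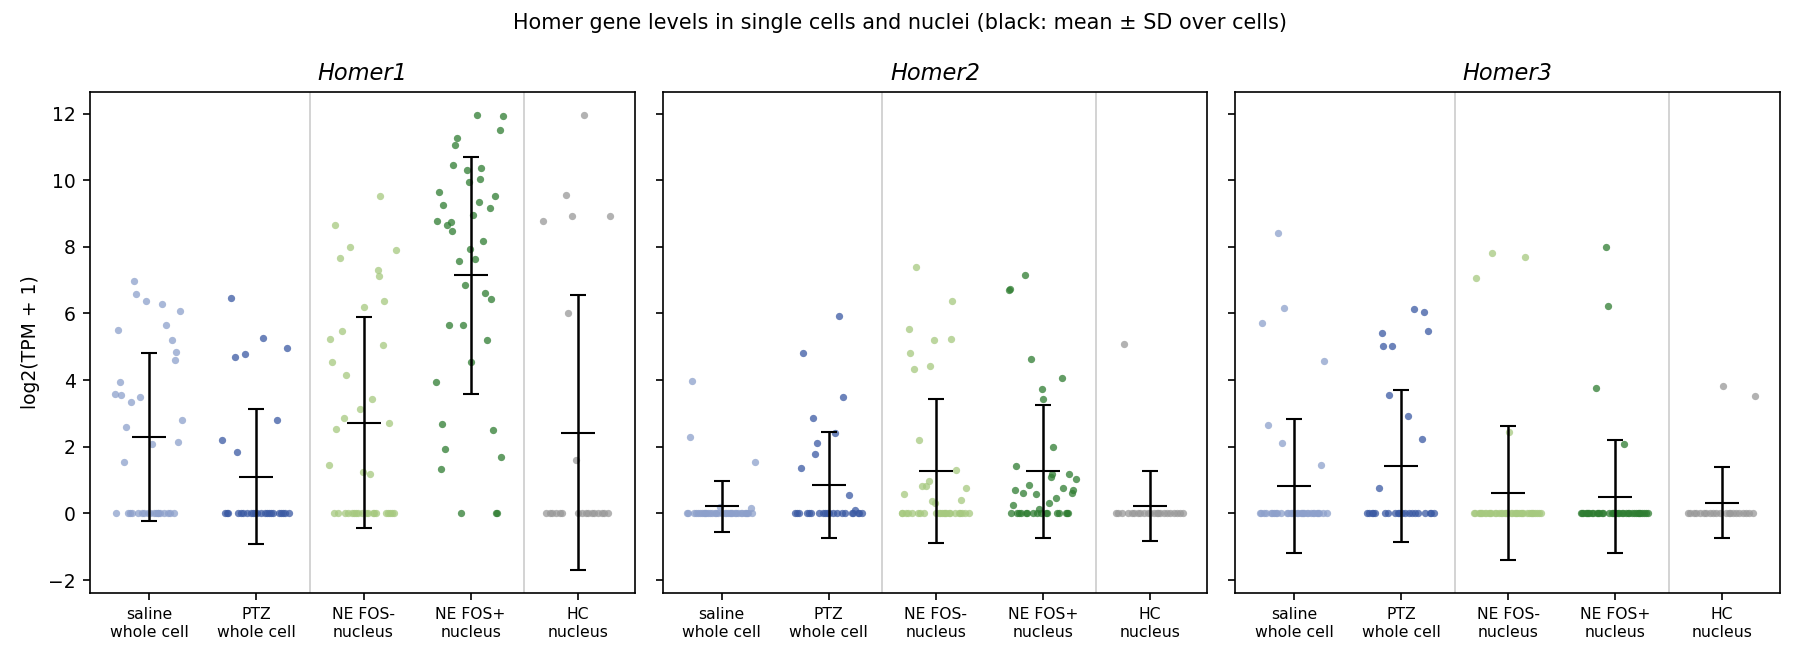
Levels of *Homer1*, *Homer2* and *Homer3* as log2(TPM + 1) in single saline-treated and PTZ-treated whole cells, NE FOS- and NE FOS+ nuclei and HC nuclei, with each point 1 cell or nucleus and black bars the mean ± SD over cells. Grey lines separate sets made and sequenced separately, and most FOS+ nuclei lie above the *Homer1* mean of 2.72 in FOS- nuclei, while for *Homer2* and *Homer3* most points of every group lie near 0.

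The NE nuclei were amplified in 4 conditions that crossed a template-switching oligo (TSO) concentration of 1 or 10 µM with a spike-in (ERCC) dilution of 200-fold or 2000-fold. At 1 µM and 200-fold, the median *Homer1* TPM was 192 in 10 FOS+ nuclei and 0 in 10 FOS- nuclei. At 1 µM and 2000-fold it was 844 in 8 FOS+ nuclei and 0.63 in 10 FOS- nuclei. At 10 µM and 200-fold it was 49.7 in 11 FOS+ nuclei and 11 in 10 FOS- nuclei, the smallest gap of the 4. At 10 µM and 2000-fold it was 491 in 11 FOS+ nuclei and 5.51 in 11 FOS- nuclei. The differences in mean log2(TPM + 1) were 4.66, 5.97, 2.40 and 4.97 in the same order. Every FOS+ nucleus amplified at 1 µM detected *Homer1*, and the 3 FOS+ nuclei without it were all amplified at 10 µM.

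**Figure D2:**
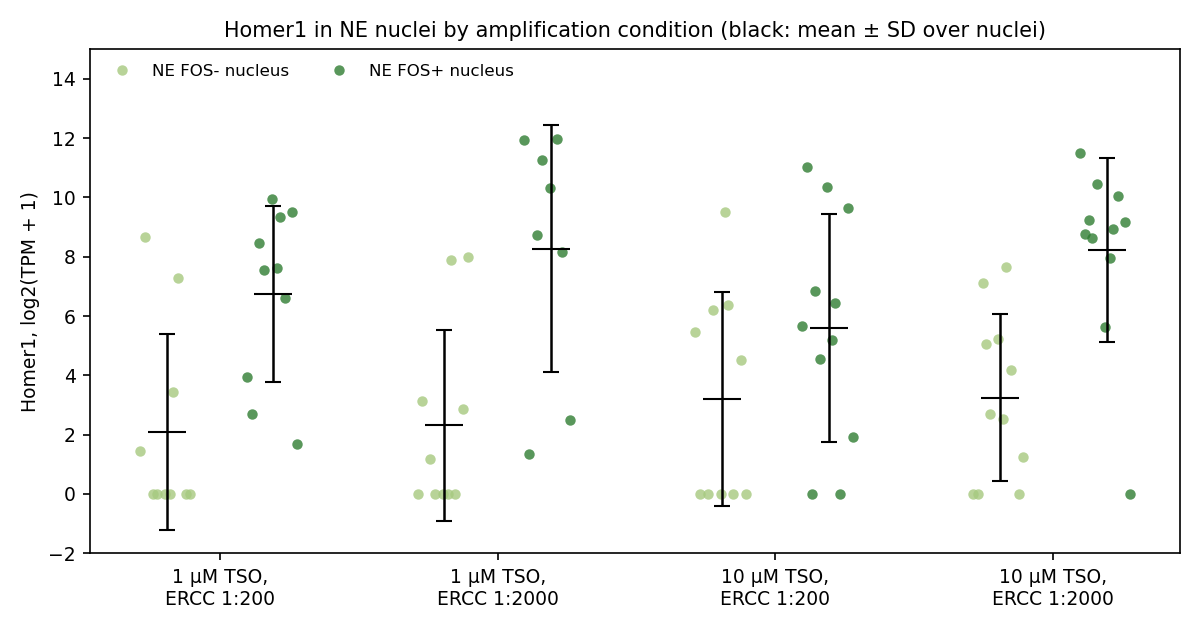
*Homer1* as log2(TPM + 1) in NE nuclei by TSO concentration and ERCC dilution, with each point 1 nucleus and black bars the mean ± SD over nuclei. The FOS+ mean lies above the FOS- mean in all 4 conditions, by 2.40 at the least and 5.97 at the most, and points of the sorts overlap in each.

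Beside *Homer1* stand the IEGs *Fos* and *Egr1*, which encode transcription factors, and *Arc*, which encodes a regulator of AMPA receptor endocytosis. All 3 were higher in FOS+ nuclei, by 2.05 for *Fos*, 6.63 for *Arc* and 1.61 for *Egr1* in mean log2(TPM + 1). The nuclei were sorted on FOS protein, yet *Fos* RNA was detected in 12 of 40 FOS+ nuclei, *Arc* RNA in 31 and *Egr1* RNA in 13. All 12 nuclei with *Fos* RNA and all 31 with *Arc* RNA also held *Homer1*, as did 12 of the 13 with *Egr1*. *Homer1* was the widest detected of the 4 genes in FOS+ nuclei, and 6 of its 37 nuclei held none of the other 3. In FOS- nuclei *Homer1* was found in 22 nuclei, of which 16 held none of the 3 IEGs. *Arc* RNA reached a TPM above 1 in 1 FOS- nucleus and *Fos* RNA in 3, so *Homer1* was the gene of this group with the most detection outside the FOS+ sort. *Homer1* was not detected in the 3 FOS- nuclei with *Fos* RNA.

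Gene-level tables do not separate the short and long forms of *Homer1*. They keep a trace of them, because the count of a gene divided by its TPM is proportional to the length of the transcripts to which its reads were assigned. This ratio was scaled in each cell on genes with a single annotated transcript, of which a median of 90.7% in FOS+ nuclei and 80.5% in saline-treated cells lay within 1% of the line. A mixture of transcripts gives a length in between, and lengths were computed only from at least 10 counts.

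In the 31 FOS+ nuclei with enough *Homer1* counts, the implied length ran from 928 to 5716 bases with a median of 3288. It lay within 2% of the 5713 bases of Homer1-204 in 3 FOS+ nuclei, and 2 more lay over 2% above the second-longest annotated transcript (4287 bases). The remaining lengths were spread out, and those of the pair of FOS+ nuclei with the highest counts were 3237 and 2484 bases. The latter lies within 2% of the short-coding Homer1-207 (2468 bases). Lengths within 2% of the short-coding Homer1-206 (2580 bases) were found in 2 saline-treated cells and 1 HC nucleus. A mixture of transcripts can give the same lengths. In 12 FOS- nuclei the lengths ran from 880 to 5702 with the same median of 3288, and 7 of them fell in a narrow range from 3286 to 3315 bases. That range, extended to 2% above its lower end, held 6 of 31 FOS+ nuclei, 3 of 6 HC nuclei, 3 of 16 saline-treated cells and 1 of 6 PTZ-treated cells, and no *Homer1* transcript of GENCODE M21 has a length in it. The Ensembl release behind the tables is not given in the sources used here. Lengths above that range were seen in 12 of 31 FOS+ and 2 of 12 FOS- nuclei, and lengths below it in 13 and 3. Counts assigned to the last exon of Homer1-204 can come from that transcript or from unspliced RNA of the long forms, which cannot be told apart here, so no isoform is assigned. Since TPM is divided by length, a short length gives a higher TPM for the same count. The FOS- nucleus with the highest TPM, 734, had a length of 880 bases, and the HC nucleus with the highest, 3989, had 1401. The shortest FOS+ length, 928 bases, was that of a nucleus at 85.3 TPM.

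**Figure D3:**
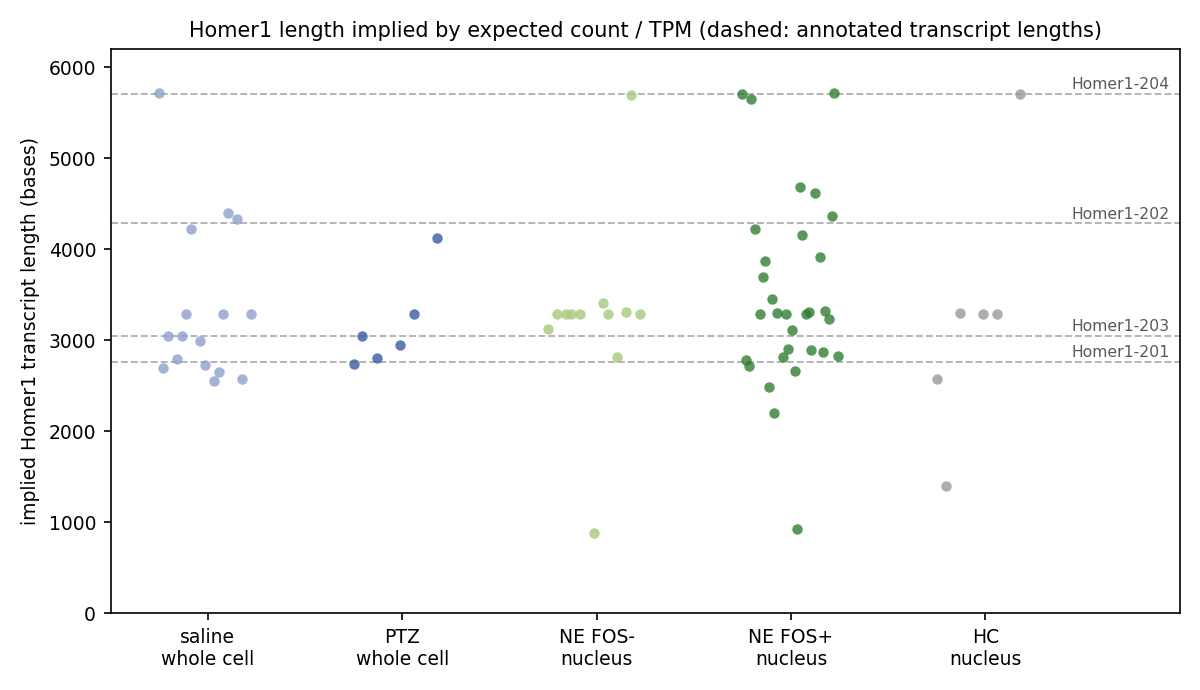
*Homer1* transcript length in bases implied by expected count over TPM in cells and nuclei with at least 10 *Homer1* counts, with each point 1 cell or nucleus and dashed lines the annotated lengths of Homer1-201 (2765), Homer1-203 (3052), Homer1-202 (4287) and Homer1-204 (5713). Near 3288 bases lie 7 of 12 FOS- and 3 of 6 HC nuclei, while FOS+ nuclei spread from 928 to 5716 bases. Other annotated transcripts, some of them short-coding, are not drawn.

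*Homer2*, whose protein is also built on an EVH1 domain and a coiled coil, had a low TPM in both sorts. Its CPM, which is not divided by transcript length, was 77.1 in FOS+ and 73.3 in FOS- nuclei, beside 106 for *Homer1* in FOS- nuclei. *Homer2* was detected in 13 of 40 FOS+ nuclei (32.5%, interval 18.6 to 49.1%) and in 10 of 41 FOS- nuclei (24.4%, interval 12.4 to 40.3%). At a TPM above 0 it was found in 24 FOS+ and 18 FOS- nuclei. Its TPM had a median of 0.44 and a highest value of 141 in FOS+ nuclei, and a median of 0 and a highest value of 166 in FOS- nuclei. The mean log2(TPM + 1) was 1.26 ± 2.00 (SD, n = 40) in FOS+ and 1.26 ± 2.16 (SD, n = 41) in FOS- nuclei, a difference of -0.01 that is far below either SD. Across the 4 conditions the difference was 1.5, -0.48, -1.51 and 0.33, without a common sign. A single FOS- nucleus held 60.5% of all *Homer2* counts of its group, and the log2 ratio of CPM moved from 0.07 to 1.35 without it and to -0.60 without the FOS+ nucleus with the most *Homer2* counts. In contrast to *Homer1*, the implied length of *Homer2* hardly varied. In all 24 cells and nuclei with at least 10 counts it lay between 10968 and 11091 bases, within 2% of Homer2-202 (10982 bases and 290 codons, with a last exon of 9961 bases), and no cell showed the length of the shorter transcripts.

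*Homer3*, the third family member, was detected in 4 of 40 FOS+ nuclei (10.0%, interval 2.79 to 23.7%) and in 4 of 41 FOS- nuclei (9.76%, interval 2.72 to 23.1%). All its counts summed to 53.8 in FOS+ nuclei (exact 95% Poisson interval 40.3 to 70.2) and to 57.8 in FOS- nuclei (interval 43.8 to 74.7). The FOS+ nuclei with *Homer3* had TPM values of 253, 73.6, 12.7 and 3.27, and the FOS- nuclei had 222, 207, 134 and 4.48. The FOS- value of 4.48 rested on an expected count of 0.14, less than 1 read, and that of 207 on 9 counts. The FOS+ value of 3.27 rested on 1 count. The difference in mean log2(TPM + 1) was -0.11, below the SDs of 1.69 and 2.01. All 4 FOS- nuclei with *Homer3* were amplified at 10 µM and 200-fold. The log2 ratio of CPM moved from -0.15 to -1.72 without 1 FOS+ nucleus and to 0.66 without 1 FOS- nucleus, so its sign rested on single nuclei.

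**Figure D4:**
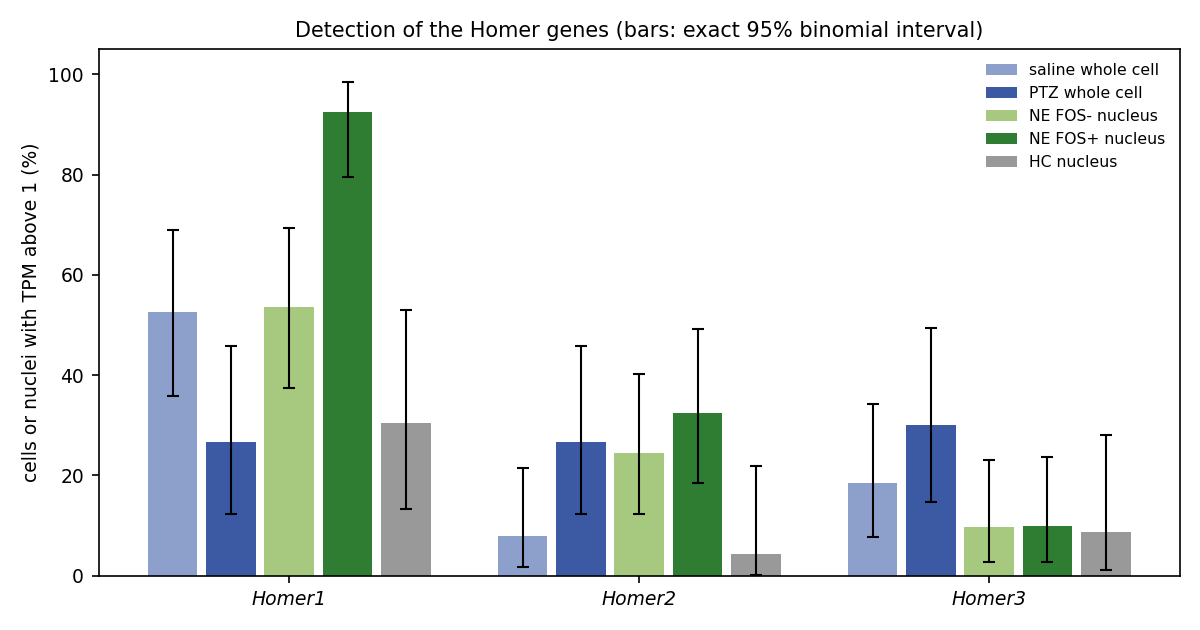
Share of cells or nuclei with a TPM above 1 of *Homer1*, *Homer2* and *Homer3* in the 5 groups, as bars with exact 95% binomial intervals. Within the NE mouse, the *Homer1* share is 92.5% in FOS+ and 53.7% in FOS- nuclei. The intervals cover counting error only, since nuclei of 1 mouse are not replicates.

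HC nuclei are given beside the NE nuclei without a comparison, since they were captured on another platform, sequenced as paired-end reads and deposited as their own table. *Homer1* was detected in 7 of 23 HC nuclei (30.4%, interval 13.2 to 52.9%). Their TPM values were 3989, 754, 485, 484, 432, 63.5 and 2.04, and the other 16 nuclei were at 0. Of the 7, 5 were above 100 TPM. The 6 HC nuclei with the highest *Homer1* were at 0 for *Fos*, *Arc* and *Egr1*, and *Fos* was at 0 in all 23 HC nuclei. A result of 0 in 23 nuclei allows a share of up to 14.8% by the exact interval, or 13% by a limit of 3 in 23 nuclei. *Homer2* was detected in 1 HC nucleus, at 33 TPM. *Homer3* was detected in 2, at 13.1 and 10.6 TPM, from 3.55 counts in all.

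In whole cells *Homer1* was lower after PTZ than after saline. This is a contrast of treatments and not of sorts on FOS protein, so its sign is not set against that of the nuclei. Cells with *Homer1* numbered 20 of 38 after saline (52.6%, interval 35.8 to 69%) and 8 of 30 after PTZ (26.7%, interval 12.3 to 45.9%). Thinned to 60000 counts, the expected shares were 38.8% and 20.7%. In PTZ-treated cells the TPM was 0 at the lowest and at the median and 87.9 at the highest, and in saline-treated cells 0 at the lowest, 2.58 at the median and 125 at the highest. The groups overlapped, with 2 saline-treated cells above every PTZ-treated cell. On the log2(TPM + 1) scale *Homer1* averaged 2.29 ± 2.51 (SD, n = 38) after saline and 1.10 ± 2.03 (SD, n = 30) after PTZ. The difference of -1.19 is smaller than the SD of either group, and a decrease of at least 1 was also seen for 8.04% of 14492 genes (3.88% for an increase). The ratio of CPM was 0.430. The difference no longer reached -1 with a pseudocount of 10 in place of 1, at -0.50, or with all cells of the table and no limits on depth or genes, at -0.91. Each treatment came from its own mice or pool, and the sample titles of the treatments end in different codes whose meaning is not given, so neither can be told apart from the treatment.

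The IEGs were plentiful in both treatments. *Fos* was detected in 26 of 30 PTZ-treated and 30 of 38 saline-treated cells, *Arc* in 14 and 17, and *Egr1* in 18 and 30. The differences in mean log2(TPM + 1) were -0.46 for *Fos*, -0.998 for *Arc* and -2.11 for *Egr1*, while the ratios of CPM were 1.12, 1.24 and 0.937. Of the 20 saline-treated cells with *Homer1*, 18 held *Fos*, 14 held *Arc*, 18 held *Egr1*, and 1 held none of them. All 8 PTZ-treated cells with *Homer1* held at least 1 of the IEGs. In 12 saline-treated and 19 PTZ-treated cells *Fos* was found without *Homer1*, whereas no FOS+ nucleus held *Fos* RNA without it. *Homer1* was detected in 37 of 40 FOS+ nuclei, which leaves little room for such a nucleus. In FOS- nuclei, all 3 with *Fos* RNA lacked *Homer1*. The highest *Homer1* TPM was 125 in whole cells, under the median of 320 in FOS+ nuclei, although whole cells and nuclei were not compared by more than their values.

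*Homer2* and *Homer3* were sparse in whole cells. *Homer2* was found in 3 of 38 cells after saline (7.89%, interval 1.66 to 21.4%) and in 8 of 30 after PTZ (26.7%). The PTZ-treated cells with it had TPM values of 60.2, 27.2, 10.2, 6.31, 4.34, 3.33, 2.41 and 1.57, and the saline-treated ones 14.6, 3.94 and 1.89. The difference in mean log2(TPM + 1) was 0.63, below the SD of 1.59 in PTZ-treated and of 0.77 in saline-treated cells, and the cell at 60.2 TPM was 1 of the 3 led by markers of another cell type. Without those 3 cells the difference was 0.50. The log2 ratio of CPM was 1.37, and 2.78 without the saline-treated cell at 14.6 TPM.

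*Homer3* was found in 7 of 38 cells after saline (18.4%, interval 7.74 to 34.3%) and in 9 of 30 after PTZ (interval 14.7 to 49.4%). Its highest TPM was 69.1 in PTZ-treated and 338 in saline-treated cells, and the medians were 0. The difference in mean log2(TPM + 1) was 0.60, below the SDs of 2.28 and 2.02. The measures of *Homer3* did not point one way, with a ratio of 2.71 in CPM and of 0.780 in mean TPM. The saline-treated cell at 338 TPM held 38.5% of the *Homer3* counts of its group, and the log2 ratio of CPM rose from 1.44 to 2.12 without it.

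Within a group the order of the 3 genes by mean TPM, a measure per transcript length, was not the same everywhere. In FOS+ nuclei *Homer1* had 706, *Homer2* 10.7 and *Homer3* 8.57. In FOS- nuclei *Homer1* had 60.3, *Homer3* 13.8 and *Homer2* 10.8. In this group alone CPM gave another order, with 73.3 for *Homer2* and 4.14 for *Homer3*. In saline-treated cells *Homer1* had 18.5, *Homer3* 13 and *Homer2* 0.544. In PTZ-treated cells *Homer3* had 10.1, *Homer1* 7.31 and *Homer2* 3.87. In HC nuclei *Homer1* had 270, *Homer2* 1.43 and *Homer3* 1.03. Single cells carried some of these means. Without the nucleus or cell with the highest value of the gene, a check added after the values were seen, *Homer1* fell to 101 in HC nuclei, *Homer3* to 4.19 in saline-treated cells and *Homer3* to 8.64 in FOS- nuclei, which put it below *Homer2* there. The single HC nucleus with *Homer2* set its place above *Homer3*. Most neighbours in these orders lie within the SD over cells, and *Homer1* in FOS+ nuclei is the exception, with a mean log2(TPM + 1) of 7.14 beside 1.26 for *Homer2* and 0.50 for *Homer3*. More than 1 Homer gene was detected in 14 of 40 FOS+ nuclei, where 1 nucleus held all 3.

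Binding partners of the Homer proteins, 21 of them reported, had smaller differences than *Homer1*. In FOS+ against FOS- nuclei, 19 of these had enough counts, of which 0 were higher by at least 1 and 2 were lower by at least 1 in mean log2(TPM + 1), beside 7.99% of all genes lower. The median of the partners was -0.31 and that of all 16411 genes -0.09. *Itpr3* and *Nfatc4* had too few counts. In PTZ-treated against saline-treated cells, none of 19 partners reached 1 in either direction, with a median of -0.27 for the partners and -0.05 for all genes. No test was run on these counts.

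Among the receptors stands *Grm5*, which encodes the metabotropic glutamate receptor mGluR5. It was detected in 26 of 40 FOS+ nuclei with a median TPM of 15.2 and in 36 of 41 FOS- nuclei with a median of 77. The difference in mean log2(TPM + 1) was -1.65, and it was negative in all 4 conditions. Of all genes, 4.37% were likewise lower by at least 1 and negative in every condition. Other measures of *Grm5* differed less, with a CPM of 263 in FOS+ and 378 in FOS- nuclei and a ratio of 0.705 in mean TPM. At 10 µM and 200-fold its median TPM was higher in FOS+ nuclei (59.4 against 38.4), and in the other conditions it was lower. Its range was 0 to 434 TPM in FOS+ and 0 to 568 TPM in FOS- nuclei, so the groups overlapped. *Drd5*, a dopamine receptor gene, differed by -0.31.

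Among the scaffolds, *Shank1* was nearest to *Homer1* in direction. This gene encodes a master scaffold of the postsynaptic density that binds the EVH1 domain, and it differed by 0.96, just inside the limit of 1, with a positive sign in all 4 conditions. Its median TPM was 115 in FOS+ and 54.6 in FOS- nuclei, and it was detected in 39 and 38 nuclei. *Shank2* differed by 0.76 and *Shank3* by -0.24. *Dlg4*, which encodes PSD-95, differed by -0.24 and *Dlgap1*, which links PSD-95 to SHANK, by -0.69.

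Among the calcium channels, *Ryr3*, a ryanodine receptor, was lower by 1.36. It was detected in 17 of 40 FOS+ and 30 of 41 FOS- nuclei, but at 10 µM and 200-fold the difference was 0.45 and thus had the other sign. *Ryr1* differed by 0.28 and *Ryr2* by -0.82, the latter negative in each condition. The inositol trisphosphate receptors *Itpr1* and *Itpr2* differed by -0.71 and 0.33. The channels of the plasma membrane *Trpc1*, *Trpc4* and *Cacna1c* differed by 0.58, -0.38 and -0.76.

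The last partners act in membrane traffic, GTPase signalling and transcription. *Agap2*, which encodes the PIKE GTPase, differed by 0.96 and had the other sign in 1 condition (-0.08 at 1 µM and 2000-fold). *Dnm3*, a dynamin, differed by 0.39, *Cdc42* by -0.41 and *Nfatc2* by -0.40.

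**Figure D5:**
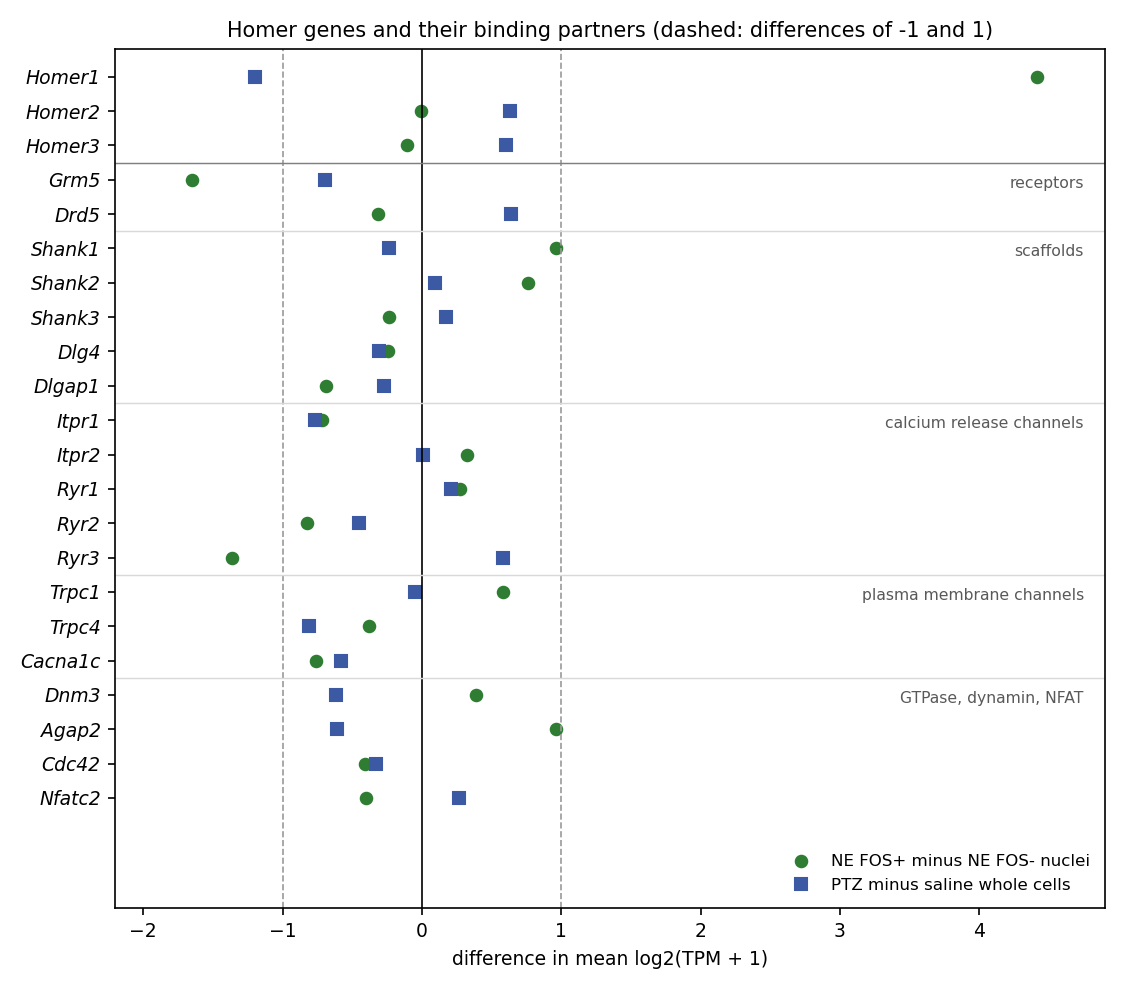
Differences in mean log2(TPM + 1) for the Homer genes and 19 binding partners, grouped by role, with circles for FOS+ minus FOS- nuclei and squares for PTZ-treated minus saline-treated cells. Dashed lines mark -1 and 1, and *Homer1* at 4.42 is the only gene shown that lies above 1.

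The genes whose pattern over cells was most like that of *Homer1* were sought within a single group, so that the difference between sorts did not set the result. A split among the nuclei of 1 sort is not removed in this way. The paper describes FOS+ nuclei that grouped with FOS- nuclei by expression, and *Arc* RNA was not detected in 9 of the 40 FOS+ nuclei. The part of such nuclei in the r values was not tested. Across the 40 FOS+ nuclei and 5024 genes detected in at least 50% of them, the highest Pearson's r of log2(TPM + 1) with *Homer1* were those of *Rbbp7* (0.843), which encodes a histone-binding chromatin protein, *Bdnf* (0.695), a neurotrophin, *Pak6* (0.693), a kinase, *Dclk1* (0.691), a microtubule-associated kinase, and 1700016P03Rik (0.669). *Arc* had an r of 0.645, *Fos* of 0.522 and *Egr1* of 0.352. The log10 total count had an r of 0.421 with *Homer1* and the number of genes detected 0.273, and 95% of genes had an r below 0.417. *Homer2* and *Homer3* had r of 0.05 and -0.23.

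Across the 38 saline-treated cells and 5683 genes the highest r were lower. They were those of A230004M16Rik (0.582), *Las1l* (0.559), *Btg1* (0.545), *Npas4* (0.540), an activity-regulated transcription factor of neurons, and *Tulp3* (0.535). *Fos* followed with 0.524, *Arc* with 0.50 and *Egr1* with 0.460, beside 0.300 at the 95th percentile of all genes. *Homer3* had an r of 0.422 and *Homer2* of 0.20, both from few detecting cells. The points of each correlation share their library and its depth, and these values are descriptions.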

How the data were processed

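Single whole cells and nuclei were labelled by treatment, sort and amplification condition. Per the methods of the paper, the authors trimmed the reads with Solexa-QA++ and aligned them to mm10 (GRCm38) with the Ensembl annotation using RSEM, with Bowtie 1.0.0 per the submitters' processing notes. The tables deposited by the authors hold expected counts, not normalized, and TPM values, scaled within each cell and not logged. Whole cells and HC nuclei were read as 100-base pairs and NE nuclei as single 50-base reads.

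Cells were kept with a total expected count over 50000 and with genes detected above the mean minus 2 SD of their table, and all 23 HC nuclei were kept. The limit on spike-ins was not applied. Means are of log2(TPM + 1), which understates the change of low genes. A gene was compared if 5 or more cells had a count that rounded above 0, and called at a difference of 1. The study used edgeR over cells. Here no test was run, because cells of 1 pool are not replicates, and edgeR 4.0.16 and DESeq2 1.42.0 gave only scaling factors, from sums rounded to whole numbers. No columns were identical. A count of 3 is 5.85e-05 to 0.00470% of a sample's total. Reads carry no molecular identifiers, so intervals cover counting error only.

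Named genes are the Homer genes, partners past the call and their neighbours by role, 3 IEGs and the 5 genes most like *Homer1* in each of 2 groups. Some listed partners are not reported here, and the counts and medians of partners leave them out. The members and lists were chosen with earlier results of these data known. Implied lengths used genes with 1 GENCODE M21 transcript of at least 500 bases and at least 20 counts. The scripts (Python 3.11.15, R 4.3.3) were tested on simulated data.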

Additional observations from a re-analysis of the deposited data

Results flagged for a closer look

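Dixon's gap ratio of log2(TPM + 1) was checked for the Homer genes in 12 sets of 8 to 10 nuclei. Each set was of 1 sort and amplification condition. Single nuclei stood apart in 3 of the 12 sets. Chance flags about 1 in 20 sets where values are normally distributed. Many values here are 0, so that rate does not hold, and a set with only 1 value above 0 is always flagged. *Homer2* reached 36.2 TPM in 1 of 10 FOS- nuclei at 1 µM TSO and 200-fold dilution. It reached 166 TPM in 1 of 10 FOS- nuclei at 1 µM and 2000-fold, the nucleus that held 60.5% of the *Homer2* counts of its sort. *Homer3* reached 12.7 TPM in 1 of 8 FOS+ nuclei at 1 µM and 2000-fold, from 4.14 counts, with the other 7 at 0. Sets of 11 nuclei and sets with all values at 0 were not checked.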

How the results depend on the processing

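*Homer1* stayed higher in FOS+ nuclei and lower in PTZ-treated cells under every alternative tried. The FOS+ difference in mean log2(TPM + 1) was 3.75 with all nuclei of the table, 5.73 with a pseudocount of 0.1 and 3.04 with 10, and 4.29 to 4.6 when each nucleus was left out in turn. The PTZ difference was -2.03 with a pseudocount of 0.1 and -0.50 with 10, -0.91 with all cells of the table, and -1.38 to -1.07 when each cell was left out. In whole cells *Homer2* differed by 1.25 with a pseudocount of 0.1, and its log2 ratio of CPM was 2.67 with cells weighted equally and 0.81 to 2.78 without single cells. For *Homer3* that ratio was 0.11 with cells weighted equally and 0.95 to 2.12 without single cells. In nuclei the ratio ran from -0.60 to 1.35 for *Homer2* and from -1.72 to 0.66 for *Homer3* without single nuclei. The cause of these shifts was not tested. A call at 2 in place of 1 left 23 genes higher and 80 lower with PTZ, 232 higher and 126 lower in FOS+ nuclei, and no partner in either direction. Leaving out the cells led by markers of another cell type, or the highest cell of a gene, was chosen after seeing the data. Thinned to 60000 counts, 85.4% of FOS+ and 41.5% of FOS- nuclei kept a *Homer1* count. No paired analysis was possible because the labels give no replicate numbers and name no animal. Where a gene had few counts, as *Homer3* had in nuclei, differences of the size seen between single nuclei cannot be resolved.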
